A study of Mus musculus with 12 samples.

Results

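MIN6 cells, which derive from a mouse insulinoma and resemble pancreatic β cells, were compared with and without a pair of plasmids before any miR-184 was induced. The comparison was chosen by sample title and takes 4 of the 12 Illumina MouseWG-6 v2 arrays of the series, 2 of the transfected control (Min6-TC) and 2 of the untransfected control (Min6-CTR), paired by the slide on which they were hybridized. The transfected control received lipofectamine with a plasmid for the rtTA transactivator and the tetO-184 plasmid, and no doxycycline. The untransfected control received lipofectamine without vectors and 1 µg/ml doxycycline. The groups therefore differed in plasmids and in doxycycline at once, and the part of each cannot be told apart from these arrays. On both slides the untransfected array came first and the transfected array second, so position and group cannot be told apart either. The labels give no harvest time for the controls, and nothing in them says whether the 2 arrays of a group came from separate cultures, so the p-values measure the spread between arrays. The other 8 arrays hold cells with both plasmids after 16, 24, 48 or 72 hr in 1 µg/ml doxycycline, again 2 for each time. They entered the fit to estimate the spread, and the 16 and 24 hr values are given beside the controls because those cells carried the plasmids and also received doxycycline. Those cells also differed from both controls in the induction of miR-184.

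In the Tet-on system the rtTA protein binds its operator and starts transcription only when doxycycline is present. Lipofectamine carries plasmid DNA into the cell, where DNA in the cytosol can be bound by sensors such as cGAS, which act through Sting1, Tbk1 and the transcription factors IRF3 and NF-κB. Chemokine genes such as Cxcl10, which encodes a ligand of the T-cell receptor Cxcr3, are among the best known targets of these factors. Doxycycline is an antibiotic that can also slow the ribosomes of mitochondria.

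Sequences are shown for what the plasmid encodes and for the gene with the largest difference. The mature miRNA of tetO-184 is given with its seed, bases 2 to 8, in capitals. The promoter of Cxcl10 is given as the 250 bases before its RefSeq start (GRCm38.p6, chr5:92348890-92349139, minus strand), with matches to motifs of IRF, NF-κB and AP-1 in capitals.
mmu-miR-184-3p: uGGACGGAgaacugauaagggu
Cxcl10 promoter: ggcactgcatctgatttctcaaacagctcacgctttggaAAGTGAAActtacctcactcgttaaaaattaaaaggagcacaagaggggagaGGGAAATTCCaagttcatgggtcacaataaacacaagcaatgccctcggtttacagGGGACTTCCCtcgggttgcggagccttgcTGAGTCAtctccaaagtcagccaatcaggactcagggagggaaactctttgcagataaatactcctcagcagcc
Read on both strands, this window holds 1 match to the IRF core AANNGAAA, 2 to the κB consensus and 1 to the AP-1 motif TGANTCA, none of which overlap. Of 32851 RefSeq windows of the same length, 21.3% hold the IRF core, 3.9% the κB consensus and 6.75% the AP-1 motif. The matches are a description of the letters and not of binding.

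The controls differed little over the array as a whole. Between 15243 and 16303 of 45281 probes had a detection p under 0.01 on a control array, and 12001 features were tested, of which 9493 were named genes. The 10th and 90th percentiles of the log2 difference, transfected minus untransfected, were −0.21 and 0.21, with a median of 0.00. On the 2 slides the differences correlated across features at 0.125, where features are not independent and the points share arrays and normalization. With the slide as a block and all 12 arrays in limma, 1 feature passed a Benjamini-Hochberg adjusted p of 0.05, 0.00833% of those tested. At an unadjusted p under 0.05 there were 165 higher (1.37%) and 141 lower (1.17%). With median scaling in place of quantile normalization these became 63 higher and 392 lower, and the median of all features moved to −0.10. Both transfected arrays lay above both untransfected arrays for 1481 features (12.3%) and below them for 1317 (11.0%).

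**Figure D1:**
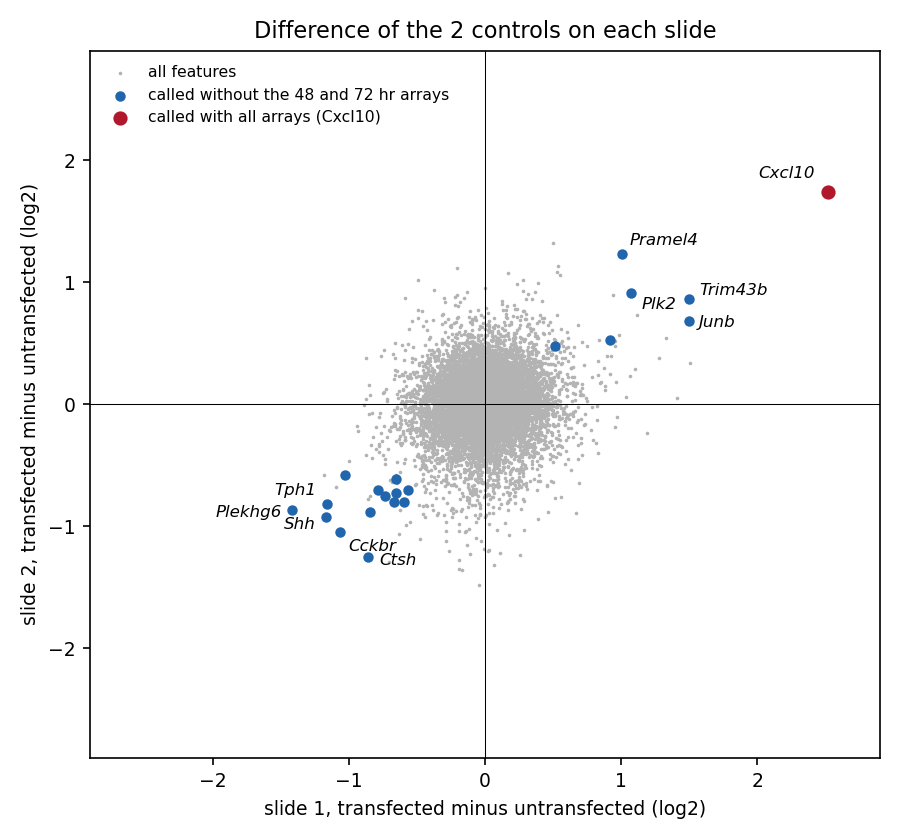
Log2 difference, transfected minus untransfected control, on slide 1 (x axis) and slide 2 (y axis) for 12001 features (grey), the 21 called when the 48 and 72 hr arrays were left out (blue) and Cxcl10, called in both fits (red). Cxcl10 lies at 2.52 and 1.74, outside the cloud of all other features.

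The spread differed between groups. The SD between the arrays of a group was 0.25 in the untransfected and 0.27 in the transfected control. It was 0.23 and 0.22 at 16 and 24 hr, and 0.34 and 0.31 at 48 and 72 hr. This SD is taken over features from the difference between slides, so it still holds the slide effects that the block removes from the fit. A fit without the 48 and 72 hr arrays called 21 features, 0.175% of those tested, of which 7 were higher and 14 lower in the transfected control. A fit of only the 4 control arrays called 20, and 19 of these were among the 21. Both fits take the differences from the same 4 arrays and change only the estimate of the spread. The overlap is therefore no support for the calls, and both have fewer residual degrees of freedom than the fit of all arrays. Values of these features are given below with the SE of the fit of all arrays, where nothing else is said. Their adjusted p, unless said otherwise, is that of the smaller fit without the 48 and 72 hr arrays, which has its own SE. Leaving out 1 control array from that smaller fit, a step chosen after seeing the data, gave between 3 and 24 calls, of which 3 to 10 were among the 21. Plk2, Rflna, Rnu6, Angpt2, Rasd2, Rnf145, Tm6sf1, Spock2 and Shisa2, 9 of the 21, were called in none of these 4 fits. Cxcl10 and Ctsh were called each time, and without the untransfected array of slide 1 these and Sct were the only calls.

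Cxcl10 rose in the transfected control. Its log2 signal was 4.58 and 4.65 in untransfected cells on slides 1 and 2, and 7.10 and 6.39 in transfected cells. Both transfected arrays stood above background and neither untransfected array did, so that the groups were far apart and the lower level is only a bound. The difference was 2.13 (SE 0.28, adjusted p = 0.0455, both with all arrays), or 2.52 and 1.74 on the slides, and at least 1.90-fold against the lowest measurable signal. The unnormalized signals were 55.2 and 67.1 in the untransfected and 182 and 142 in the transfected control. After induction Cxcl10 was lower than in the transfected control and higher than in the untransfected one, at 5.95 and 5.94 at 16 hr and 6.26 and 5.59 at 24 hr, with 1 array above background at each time. It stood at 5.12 and 5.36 at 48 hr and 5.0 and 5.28 at 72 hr, not above background. A further probe for Cxcl10 was above background on no array, with a difference of 0.04. Without the slide as a block, the adjusted p of Cxcl10 was 0.162, and leaving out 1 of the 4 control arrays gave 0.0985 to 1.00, while the difference stayed between 1.78 and 2.47.

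Of 12 tested genes of chemokines and NF-κB targets 6, with Cxcl10 among them, were higher on both slides, against 26.2% of all features. On both slides 1 was lower, against 25.5% of all features. In the mean over slides 9 were above 0, against 50.1% of all features, and 3 had an unadjusted p under 0.05. The median was 0.10 against 0.00 for all features. Relb, a subunit of NF-κB, was not above background in untransfected cells, at 5.37 and 5.25. It reached 6.49 and 5.98 in transfected cells, at least 1.33-fold higher, with 1 of 2 arrays above background. Its adjusted p was 1.00 with all arrays and 0.0808 without the 48 and 72 hr arrays. Nfkbia, the inhibitor that NF-κB itself induces, went from 8.16 and 8.08 to 8.88 and 8.40, a difference of 0.52 (SE 0.21). In both genes the groups did not overlap. Rela, the main subunit, stood at −0.03, and Nfkbiz, an atypical inhibitor, also at −0.03.

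Genes listed for the interferon response were at the level of all features. This list does not hold Cxcl10, B2m or the H2 genes, which were counted in other lists. Of 58 genes listed 27 were tested, none had an unadjusted p under 0.05 and the median was 0.03. Oasl2, of the oligoadenylate synthetase family, had the smallest p, at 5.08 and 4.61 in untransfected and 5.92 and 5.14 in transfected cells, with 1 of the 4 arrays above background. The groups came close without overlapping. Ifit3, which binds viral RNA, differed by 0.31, Irgm1, an immunity-related GTPase, by 0.24, and Isg20, a nuclease, by −0.35. A further Irgm1 probe above background on all 12 arrays gave −0.00098. Stat2 and Irf9, which carry the type I interferon signal to the nucleus, stood at 0.25 and 0.22. Among 21 genes of nucleic acid sensing the median was 0.01 and none had an unadjusted p under 0.05. Ticam1, the adaptor of Tlr3, stood at −0.44 and Samhd1, which degrades nucleotides, at −0.31. Zbp1, a sensor of Z-form nucleic acid, stood at 0.22, Irf3 at 0.19 and the kinase Tbk1 at −0.06.

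Of 21 genes listed for class I antigen presentation 13 were tested and 12 of these were above 0, against 50.1% of all features, with a median of 0.18. On both slides 7 were higher and none was lower, against 26.2% and 25.5% of all features. None passed the test over all features, and 2 had an unadjusted p under 0.05. B2m, the light chain of class I molecules, stood at 8.42 and 8.07 in untransfected and 8.95 and 8.81 in transfected cells, a difference of 0.63 (SE 0.22). The groups did not overlap, and a further probe above background on all arrays gave 0.65. H2-Q7, a class Ib heavy chain, was at 6.91 and 6.77 against 7.56 and 7.24, a difference of 0.56 (SE 0.17). H2 genes share much of their sequence, so the probe may read more than H2-Q7. Tapbp, which loads peptides, differed by 0.39, H2-T23 by 0.34, H2-K1 by 0.23 and H2-D1 by 0.18. Tap2 and Psmb8 were above background on no control array. Cd274, the ligand PD-L1, was the member below 0, at −0.09. At 16 and 24 hr B2m stood between 8.70 and 8.98 and H2-Q7 between 7.12 and 7.65, above both untransfected arrays. Median scaling moved the median of this list to 0.07.

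Among 23 tested immediate early genes, 10 were higher and 7 lower on both slides, against 26.2% and 25.5% of all features. The largest upward differences among these were those of Junb, Jun and Fos of the AP-1 family. Junb was at 7.14 and 7.41 in untransfected and 8.63 and 8.10 in transfected cells. The difference was 1.09 (SE 0.22, adjusted p = 0.615 with all arrays and 0.00566 without the 48 and 72 hr arrays). Jun went from 5.97 and 7.02 to 7.48 and 7.36, a difference of 0.92 (SE 0.31) that was 1.5 on slide 1 and 0.34 on slide 2. Fos differed by 0.72 (SE 0.19), with 8.64 and 7.94 against 9.60 and 8.43, where the arrays overlapped between slides though not within one. In this list 3 genes had an unadjusted p under 0.05, all of them higher, and the median was 0.10. Egr1, a zinc finger factor, stood at 0.25. Npas4, the lowest of the list, stood at −0.62, above background on 1 untransfected and no transfected array. Maff and Fosb stood at −0.47 and −0.42, the first above background on 1 of 2 transfected arrays and the second on 1 array of each control. Junb stood at 8.06 to 8.36 over the 16 and 24 hr arrays, and Jun reached 9.0 and 9.57 on slide 2 at 48 and 72 hr.

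**Figure D2:**
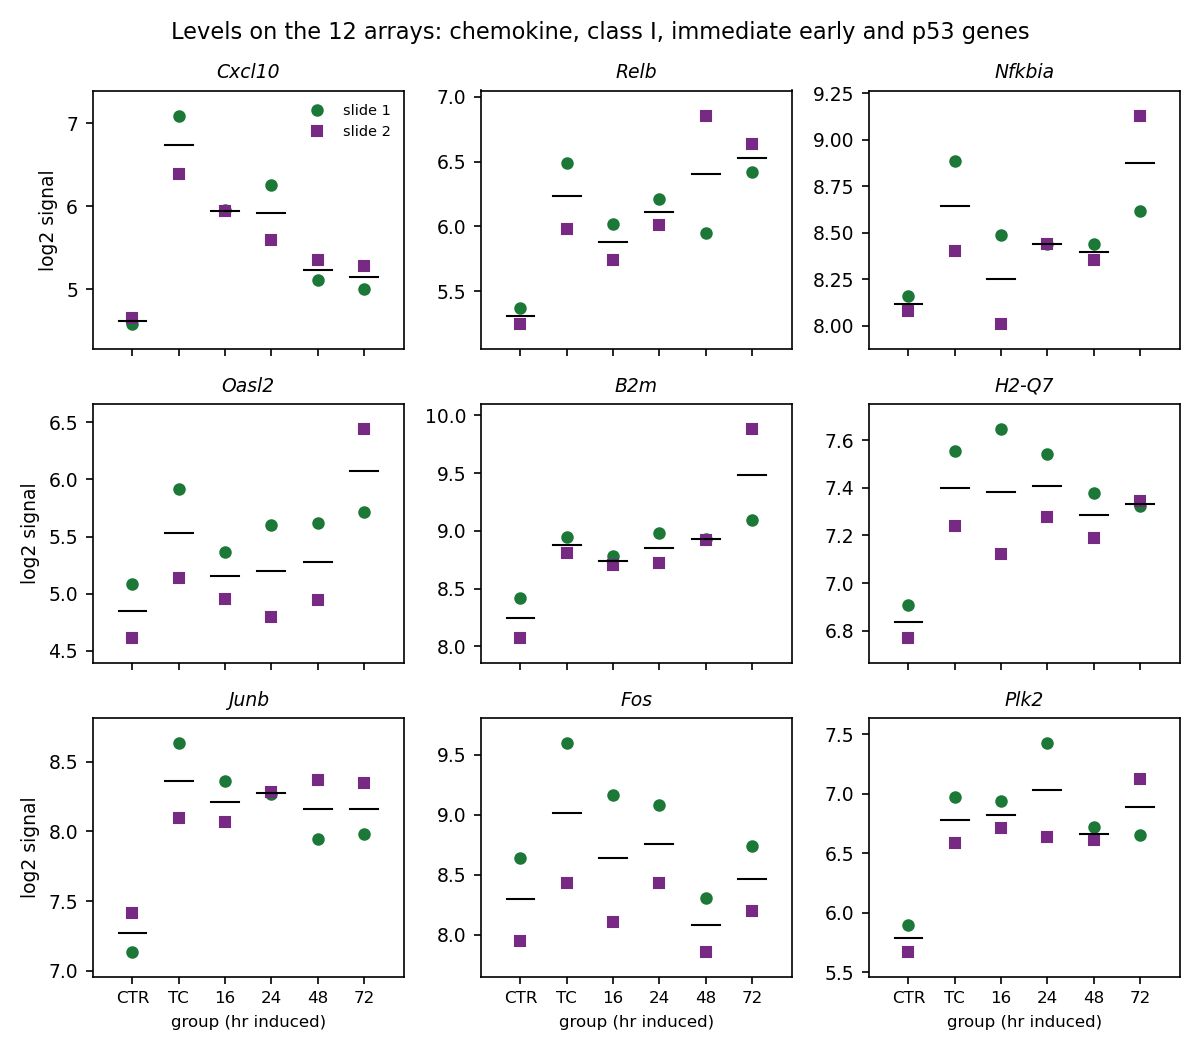
Log2 normalized signal (y axis, a separate range in each panel) of 9 genes on the 12 arrays, by group (x axis: CTR untransfected, TC transfected without doxycycline, then hr of induction), with slide 1 as circles, slide 2 as squares and the mean of both as a line. Cxcl10 was highest in the transfected control (7.10 and 6.39), while Junb and Plk2 stood above the untransfected arrays at every time.

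Among 22 tested genes of p53 and the DNA damage response 17 were above 0, against 50.1% of all features. On both slides 10 were higher and 2 lower, against 26.2% and 25.5% of all features. An unadjusted p under 0.05 was reached by 4, all higher, against 1.37% of all features. The median was 0.09, and −0.01 with median scaling. Plk2, a polo-like kinase induced by p53 in many cells, was at 5.90 and 5.67 in untransfected cells and at 6.97 and 6.59 in transfected cells, a difference of 0.99 (SE 0.24, adjusted p = 1.00 with all arrays and 0.0273 without the 48 and 72 hr arrays). It was above background on 1 of 2 untransfected and on both transfected arrays. Cdkn1a, the cyclin-dependent kinase inhibitor p21, went from 9.92 and 9.87 to 10.76 and 10.04, a difference of 0.51 (SE 0.18). Its other probes gave 0.52 and 0.91. Trp53inp1 differed by 0.59 (SE 0.23), Gadd45a by 0.50 (SE 0.25) and Mdm2, which marks p53 for degradation, by 0.35 (SE 0.16), none past the test. Cdkn1a, Trp53inp1 and Mdm2 were also above both untransfected arrays at 24 hr, at 10.80 and 10.60, 9.52 and 9.24, and 11.56 and 11.31. Genes of the cell cycle had a median of 0.00 over 38, with Mcm6, a subunit of the replicative helicase, at −0.39 and Cdc20, an activator of mitotic exit, at 0.26. Further Mcm6 probes above background on all 12 arrays gave −0.01 and 0.03, and one above background on 5 arrays gave 0.02.

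Further features called higher without the 48 and 72 hr arrays were Pramel4, Trim43b, Rnu6 and an unnamed probe. Pramel4, of the Prame-like family, was at 6.23 and 5.92 against 7.24 and 7.15, a difference of 1.12 (SE 0.21, adjusted p = 0.010). Trim43b, a tripartite motif gene, was not above background in untransfected cells, at 4.54 and 4.67, and was at 6.04 and 5.53 in transfected cells, with 1 of 2 arrays above background (adjusted p = 0.0353). Rnu6, annotated as U6 small nuclear RNA, went from 12.23 on slide 1 to 12.74, and was at 12.48 in transfected cells on slide 2, a difference of 0.50 (SE 0.11, adjusted p = 0.0417). An unnamed probe differed by 0.72 (adjusted p = 0.0219). In all 4 the groups did not overlap. Pramel4, Trim43b and Rnu6 have close copies, so that their probes may read several genes. These stayed high in induced cells, which share the untransfected arrays as their control. Against those arrays the differences at 16 and 24 hr were 1.31 and 1.40 for Pramel4 and 0.99 and 0.90 for Rnu6, and Trim43b was at least 1.06-fold and 1.38-fold higher. Slc11a1, a metal transporter of phagosomes, stood at 0.78 (SE 0.23) in transfected cells and at 1.06 and 1.06 at 16 and 24 hr. Ghdc and Mpv17l, of less certain function, stood at 0.81 and 0.80. A further Mpv17l probe above background on all 12 arrays gave −0.09.

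The features lower in the transfected control include a gut hormone, a morphogen and an enzyme of serotonin synthesis. Sct, which encodes secretin, was at 14.07 and 14.39 in untransfected cells and at 13.40 and 13.59 in transfected cells. The difference was −0.73 (SE 0.16, adjusted p = 0.852 with all arrays and 0.000686 without the 48 and 72 hr arrays). At 16 and 24 hr Sct stood at 14.08 to 14.24, within the range of the untransfected arrays. Rflna, which encodes refilin A, a binding partner of filamin, had the same shape, with 11.86 and 11.99, then 11.12 and 11.23, then 11.75 to 12.02 in early induced cells (difference −0.74, SE 0.17, adjusted p = 0.00432). Plekhg6, an exchange factor for small GTPases, went from 8.55 and 8.94 to 7.13 and 8.07 (−1.14, SE 0.43, adjusted p = 0.000659) and stood between 8.20 and 9.02 at 16 and 24 hr. These 3 were lower in the cells that had plasmids without doxycycline and near the untransfected level 16 and 24 hr after induction. The induced cells differed from the transfected control in doxycycline, in the induction of miR-184 and possibly in harvest time. The cause was not tested.

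Shh, the ligand Sonic hedgehog, was at 8.82 and 9.88 in untransfected and 7.65 and 8.96 in transfected cells, with a difference of −1.04 (SE 0.20, adjusted p = 0.000638) and of −0.90 for a further probe. The slides differed more than the groups, so that the arrays overlapped between slides and were lower on each. Tph1, the first enzyme of serotonin synthesis, went from 10.81 and 10.33 to 9.65 and 9.51 (−0.99, SE 0.34, adjusted p = 0.00324), with no overlap. Against the untransfected control, Shh stood at −0.37 and −0.20 and Tph1 at −0.29 and −0.38 at 16 and 24 hr. Tph1 was lower at later times, reaching 8.93 and 7.67 at 72 hr. Angpt2, a ligand of the endothelial receptor Tek, was at 9.41 and 10.50 against 8.63 and 9.80 (−0.74, adjusted p = 0.0273), and at 16 and 24 hr it stood at −0.21 and 0.02. Cdhr5, a cadherin of the brush border and the neighbour of Sct on chromosome 7 in RefSeq, was at 7.02 and 6.11 against 5.84 and 5.53. Its difference of −0.88 (SE 0.30) was not called in either fit (adjusted p = 1.00 and 0.192), and at 16 and 24 hr it stood at 0.10 and 0.24.

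**Figure D3:**
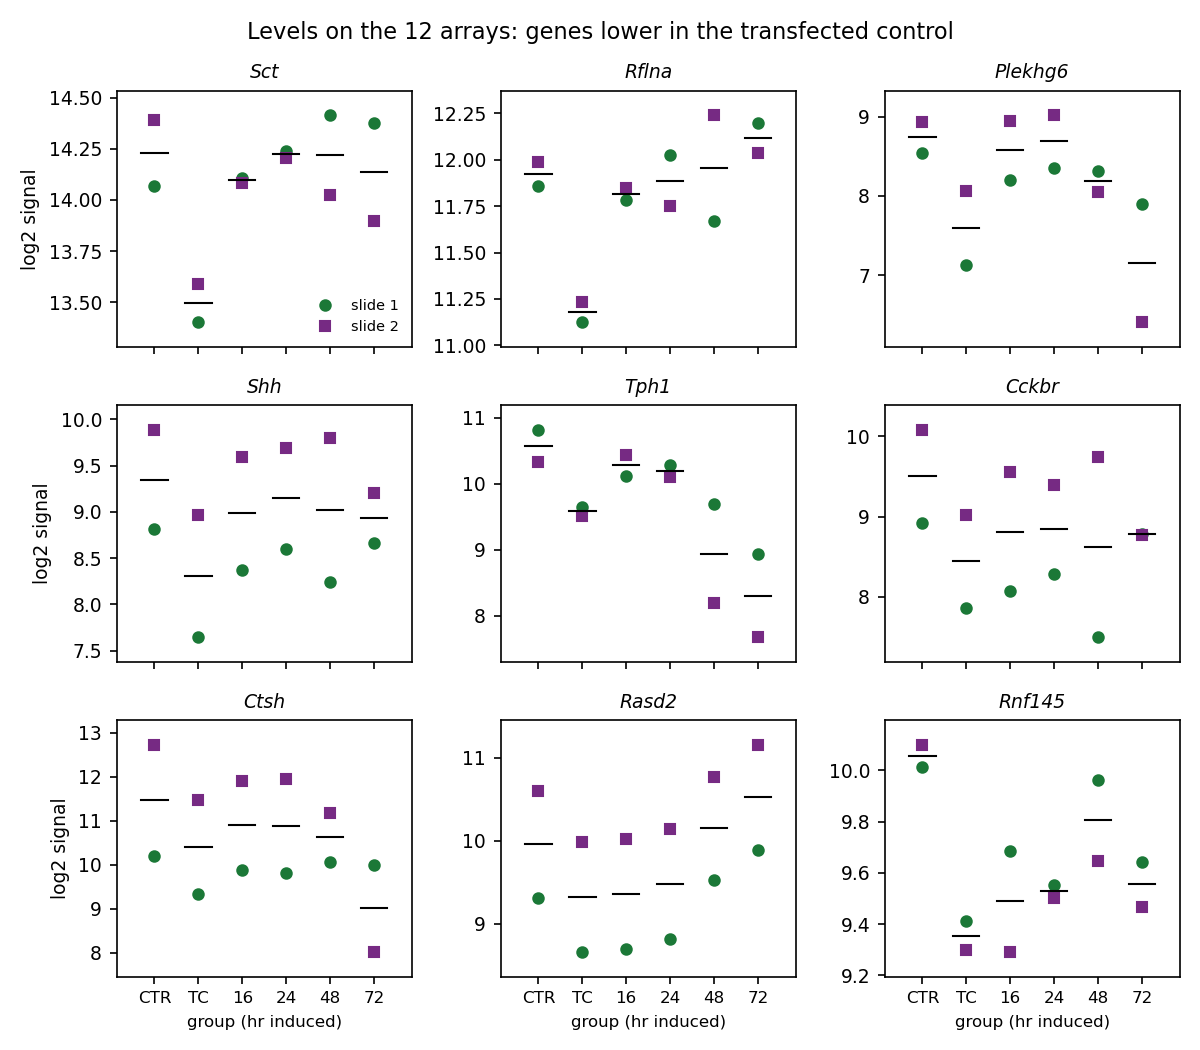
Log2 normalized signal (y axis, a separate range in each panel) of 9 genes lower in the transfected control, on the 12 arrays by group (x axis: CTR untransfected, TC transfected without doxycycline, then hr of induction), with slide 1 as circles, slide 2 as squares and the mean of both as a line. Sct and Rflna were lower in the transfected control than on any other array, and Tph1 and Plekhg6 were also low at 72 hr, as Ctsh was on slide 2.

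Further genes were lower in the transfected control and stood between both controls, or near the transfected level, after 16 and 24 hr. Ctsh, the lysosomal protease cathepsin H, was at 10.20 and 12.72 in untransfected and 9.34 and 11.48 in transfected cells, a difference of −1.05 that was −0.86 and −1.25 on the slides. Its SE was 0.76 with all arrays (adjusted p = 1.00) and 0.12 without the 48 and 72 hr arrays (adjusted p = 0.000400), and at 72 hr it was at 9.999 on slide 1, near the untransfected level, and at 8.02 on slide 2. A further probe for Ctsh gave −1.16. Cckbr, the receptor for cholecystokinin and gastrin, was at 8.93 and 10.07 against 7.86 and 9.02 (−1.06, adjusted p = 0.000659). At 16 and 24 hr Ctsh stood at −0.57 and −0.58 and Cckbr at −0.69 and −0.66. Rasd2, a small GTPase, was at 9.31 and 10.60 against 8.66 and 9.99 (−0.63, SE 0.13, adjusted p = 0.0273), with −0.59 and −0.48 at 16 and 24 hr. Rnf145, a ubiquitin ligase of the sterol response, was at 10.01 and 10.10 against 9.41 and 9.30 (−0.70, SE 0.15, adjusted p = 0.0273), with −0.57 and −0.53. Rasl11a, a Ras-like protein, stood at −0.80 (adjusted p = 0.010), with −0.58 and −0.62. Tm6sf1 (−0.87), Spock2 (−0.69) and Shisa2 (−0.63) were the remaining calls, with adjusted p of 0.0194, 0.0219 and 0.0213. For Rasl11a, Tm6sf1, Spock2 and Shisa2 a further probe gave −0.73, −0.63, −0.74 and −0.78.

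**Figure D4:**
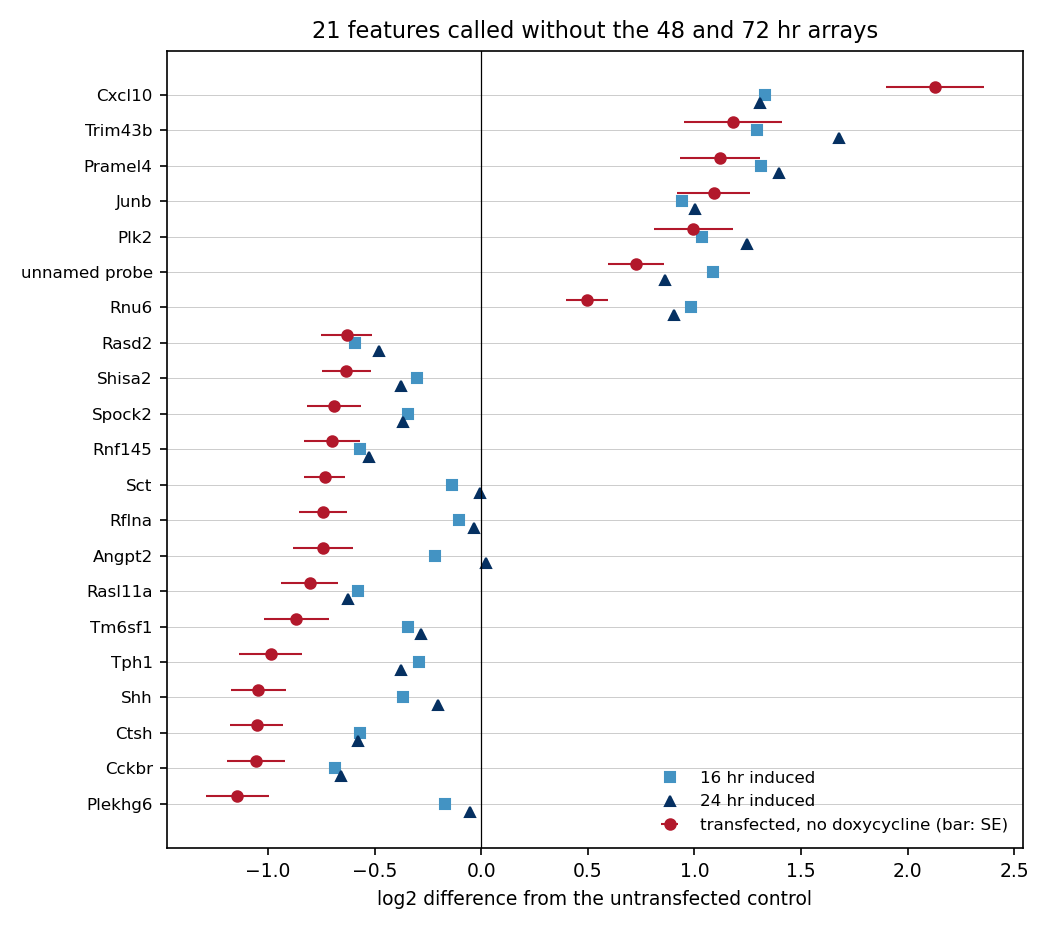
Log2 difference from the untransfected control (x axis) of the 21 features called without the 48 and 72 hr arrays (y axis), for the transfected control (red, with the SE of that fit) and for cells induced for 16 hr (squares) and 24 hr (triangles), all against the same 2 arrays. Pramel4, Junb and Plk2 were high in all 3 groups, while Sct, Rflna and Plekhg6 were near 0 after induction.

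Genes that define the β cell differed little between the controls, and more of them were lower than higher in transfected cells. The unnormalized signal of Ins2, which encodes insulin, was 46445 and 51790 in untransfected and 44191 and 53623 in transfected cells, lower on 1 slide and higher on the other. It ranks among the brightest probes, where quantile normalization gives it the same value on all 4 arrays. Of 28 tested genes of β-cell identity 20 were below 0 and 7 above, where 50.1% of all features were above 0. The median was −0.09, and none had an unadjusted p under 0.05. On both slides 11 were lower and 4 higher, against 25.5% and 26.2% of all features. Neurod1, a β-cell transcription factor, stood at −0.42 (SE 0.22), Chgb, a granin of the secretory granule, at −0.28, Kcnj11 and Abcc8, the subunits of the potassium channel closed by ATP, at −0.27 and 0.20, and Pdx1 at −0.15. A further Abcc8 probe above background on all 12 arrays gave −0.11. The medians of this list on the slides were −0.17 and 0.01. Among 12 peptides of islet and neuroendocrine cells, Sct and Pyy had an unadjusted p under 0.05. Pyy, peptide YY, was at 5.11 and 6.65 against 4.83 and 5.84 and above background on 1 of these arrays. Cck, cholecystokinin, differed by −0.31 and Gcg, which encodes glucagon, by 0.08, and by −0.00493 with median scaling. In the exocytosis list the median was 0.01 over 25 genes, with Syt7 and Syt9, calcium sensors of vesicle release, at −0.38 and −0.32 and Cplx2, a clamp of SNARE complexes, at −0.25.

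Lists of mitochondrial genes had medians near that of all features, and the ATF4 list had the lowest of the 27. The mitochondrial ribosome had a median of 0.02 over 73 genes, with 43 above 0, against 50.1% of all features. Mrpl45 was at 6.05 and 6.02 against 5.21 and 5.27, not above background in transfected cells and at least 1.07-fold higher in untransfected cells. It passed the detection filter only through the untransfected arrays, where it was higher, so no weight is given to its direction. The respiratory chain had a median of 0.02 over 68 genes, with Ndufb11 of complex I at 0.35, and mitochondrial chaperones and proteases one of 0.03 over 26, with the coactivator Ppargc1a at 0.41. Of 41 genes regulated by Atf4 or by amino acid shortage 30 were below 0 and 11 above, where 50.1% of all features were above 0. The median was −0.10. On both slides 11 were lower and 4 higher, against 25.5% and 26.2% of all features. The slides differed, with medians of 0.07 and −0.28, and Chac1, which degrades glutathione, stood at −0.46, Cars, a tRNA synthetase, at −0.44 and Atf4 at −0.24. Genes of the unfolded protein response, 25 in all, stood at a median of −0.03, with the chaperone Hspa5 at 0.33.

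The remaining lists had medians between −0.07 and 0.06. Autophagy stood at 0.05 over 26 genes, with Map1lc3b, a protein of the autophagosome membrane, at 0.52 (SE 0.21) and the kinase Ulk1 at 0.38 (SE 0.15). The lysosome stood at 0.03 over 35, with the sialidase Neu1 at 0.29 and Laptm4a at −0.26. Sterol and fatty acid synthesis stood at 0.01 over 27, with Scd2, a fatty acid desaturase, at −0.33. The antioxidant response stood at 0.03 over 18, with Nqo1, a quinone reductase, at 0.29, and heat shock at −0.01 over 15, with Hspa4l at −0.63. Metal handling stood at 0.06 over 15, with the metallothionein Mt2 at 0.37. Glycolysis and hypoxia stood at −0.07 over 23, with Txnip, an inhibitor of thioredoxin, at 0.52 (SE 0.27). The cytosolic ribosome stood at 0.00 over 51, with Rps13 at 0.24, and cytoskeleton and adhesion at −0.04 over 14. Among these, Map1lc3b, Ulk1, Neu1 and Rps13 had an unadjusted p under 0.05 and none passed the test. A further Rps13 probe above background on all 12 arrays gave −0.07.

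**Figure D5:**
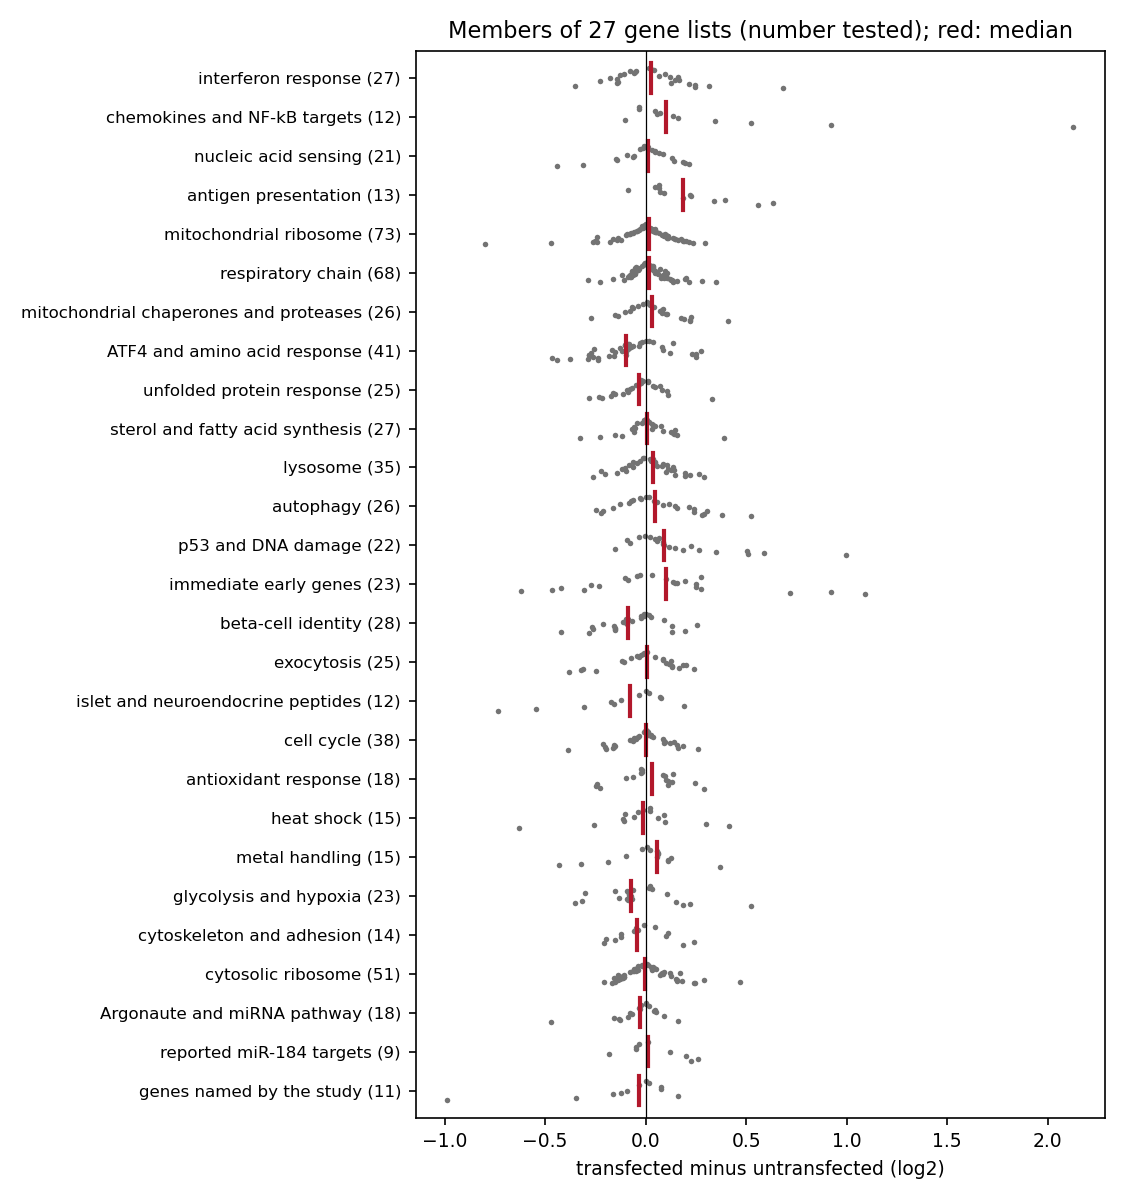
Log2 difference, transfected minus untransfected control (x axis), of the tested members of 27 gene lists (y axis, with the number tested), each point a gene and each red line the median of a list. The medians lie between −0.10 and 0.18, and Cxcl10 is the point farthest to the right, at 2.13.

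The tetO-184 plasmid encodes miR-184, and the transfected control received no doxycycline to induce it. The arrays hold no probe annotated to it. Ago2, a reported target that encodes an Argonaute protein, was at 9.52 and 9.71 in untransfected and 9.26 and 9.90 in transfected cells, a difference of −0.03 (SE 0.18), lower on slide 1 and higher on slide 2. Its other probes gave 0.07 and 0.01. Slc25a22, a mitochondrial glutamate carrier, was above background on 1 of 12 arrays and Rasd1 on none, and neither was tested. Over 9 tested targets reported for miR-184 the median was 0.01, with Bcl2 at 0.26, Crtc1 at 0.23 and Numbl at 0.20. Over 18 genes of Argonaute proteins and miRNA processing the median was −0.03, with Tnrc6b, a GW182 protein, at −0.47 (SE 0.25) and Dicer1 at −0.13. Tnrc6b stood at −0.04 and −0.90 on the slides and was above background on 1 transfected array. A further Tnrc6b probe, above background on 10 arrays, gave 0.17. Cadm1, a target of miR-375, was at 10.51 and 10.41 against 10.10 and 10.12, a difference of −0.35 (SE 0.15). It did not pass the test (adjusted p = 1.00 with all arrays and 0.541 without the 48 and 72 hr arrays). Gphn and Elavl4, also named as targets of miR-375, stood at −0.16 and −0.09. Further probes above background on all 12 arrays gave −0.01, −0.06 and −0.03 for Gphn and 0.06 for Elavl4. Nmu, the neuropeptide neuromedin U, was above background on no control array, at 4.65 and 4.71 against 4.72 and 4.79. Laptm4a was at 11.24 and 11.73 in untransfected and 11.06 and 11.39 in transfected cells.

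Marker genes of β cells were present and those of other tissues mostly were not. All 8 β-cell markers with a probe were above background on all 4 control arrays, and so were the α-cell genes Gcg, Ttr and Irx2. The log2 of the summed levels was 16.54 to 16.61 in untransfected and 16.59 to 16.62 in transfected cells for β-cell markers. Quantile normalization gave Ins2 the value 15.53 on all 4 arrays, so a large part of these sums was equal beforehand. Ppy, the marker of PP cells, was above background on all 4 control arrays, at 6.31 and 8.36 against 6.21 and 8.12, and Ghrl, that of ε cells, on 1. Markers of δ cells (3), fibroblasts (8), endothelium (4) and immune cells (7) were above background on none of the control arrays. Their sums, which are at the level of background, were 7.59 to 7.62 and 7.59 to 7.70 for immune cells and 7.75 to 7.82 and 7.76 to 7.78 for fibroblasts. Among acinar and duct markers 1 of 8 and 1 of 4 were above background, with sums of 10.52 to 10.62 and 10.57 to 11.08 in untransfected and 10.39 to 10.65 and 10.70 to 10.92 in transfected cells. In bulk RNA, a change in some of the cells and a smaller change in all of them cannot be told apart, which holds for every value here since the share of cells that took up plasmid was not measured on the arrays.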

How the data were processed

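RNA of 12 samples was hybridized to Illumina MouseWG-6 v2 bead arrays. The table the authors deposited gives, without normalization between arrays, the mean bead intensity of every probe. Beside it the authors deposited detection p-values, which rest on negative control beads and move in steps of 1 in 936. A further deposited table holds quantile-normalized intensities, for which the submitters' processing notes name lumi, and served only as an alternative.

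The function neqc (offset 16) of limma 3.58.1 in R 4.3.3 took the background from the detection p-values, applied quantile normalization and returned log2 values. A probe entered if its detection p was under 0.01 on 2 or more of the 12 arrays, which 17556 did. Where a gene had several such probes (3744 genes), the brightest on average stood for it. Values of further probes are printed for some genes, and for others they differed in size or sign. Probe names came from the platform annotation, which names 34885 probes with 1 symbol and 18 with several, while 10378 are unnamed here. A match of 34807 probes by Entrez ID to GRCm38.p6 RefSeq genes changed 0 symbols. Promoter and miRNA sequences are from RefSeq. matplotlib 3.10.9 under Python 3.11.15 drew the plots.

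limma was fitted to 6 groups with the slide as a block (5 residual degrees of freedom), a moderated test with a trend and Benjamini-Hochberg adjustment over 12001 features. Array descriptions tie the replicate number to a slide. Arrays of different groups on 1 slide deviated together, with correlations of 0.207 to 0.628 over 15 pairs of groups (median 0.434, controls 0.628). An exact permutation test of 2 against 2 arrays cannot go below p = 0.333 and was not used. A group with no array above background gives a fold only as a lower bound, taken against the lowest signal above background. The fit was tested on simulated data. The number of arrays limits the precision.

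The comparison and the 27 lists were chosen with earlier results of these data known. Genes named are those called, those with the smallest p on each side that moved the same way on both slides, up to 4 members of a list with the smallest p (more where a list is described gene by gene), genes the study names, those called without the 48 and 72 hr arrays, and markers; not all are printed. The 16 and 24 hr groups share arrays with the main comparison, so their values are set side by side without a test of likeness. Alternatives were other blocks, offsets, scalings, filters and probe choices, smaller sets of arrays, array weights and the methods' t-test.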

Additional observations from a re-analysis of the deposited data

How the results depend on the processing

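With 2 arrays in a group the number of calls depended on how the spread was estimated. Cxcl10 was the 1 call among all features, so that 1 gene list held a called gene (lists themselves were not tested), and its difference ranged from 1.28 to 2.47 over 17 alternatives, 10 of which called it. Without the slide as a block (no pairing of arrays) limma called 0 features in each of the 4 comparisons, so that 0 lists held one, with 109 at an unadjusted p under 0.05 between the controls and Cxcl10 at an adjusted p of 0.162. With a background offset of 50 there were 0 calls between the controls and in 0 lists a called gene, with 301 at an unadjusted p under 0.05 and Cxcl10 at 1.28. The methods' t-test gave 338 features unadjusted and 0 after Benjamini-Hochberg adjustment, with a called gene in 0 lists. A fit of only the 4 control arrays called 20 features and one without the 48 and 72 hr arrays 21, with a called gene in 5 lists each, and array weights by group called 2 features. Leaving out 1 control array, where the lone array of a group is assumed to vary like the others, gave 0 to 0 features and a called gene in 0 lists, with 217 to 377 at an unadjusted p under 0.05. For 16 hr against the untransfected control 3 features were called, and 24 without the later arrays, 5 with array weights, 1 with the slide as a random block, 1 with median scaling and 1 to 2 leaving out 1 control array. For 24 hr against the untransfected control 3 were called, and 27 without the later arrays, 24 with array weights and 1 to 3 leaving out 1 control array. For 16 hr against the transfected control 1 was called, and 6 without the later arrays. Over 114 named genes 1872 of 1933 values kept their direction and side of the threshold, 40 passed newly and 7, all of Cxcl10, no longer passed. In 14 the sign changed. Median scaling put Gcg at −0.00493, and leaving out 1 control array gave −0.214 to 0.364 for Gcg, −0.231 to 0.161 for Ago2, −0.981 to 0.096 for Cars, −0.0836 to 0.230 for Nmu, −0.332 to 0.152 for Cd274, −0.860 to 0.0179 for Fosb, −0.0744 to 0.00703 for Nfkbiz, −0.198 to 0.135 for Rela and −0.126 to 0.0130 for Tbk1. Of 432 list medians 87 moved by more than the spread between slides, with no list median tested. The cause of these changes was not tested.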

Other observations

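Detection separated the controls for a few genes outside the lists. Of all features, 15 were above background on both transfected arrays and on neither untransfected array, and 70 the other way round. The first set held, beside Cxcl10, Mcam, an adhesion molecule, Tgfb3, a ligand of the TGF-β family, and Tnfsf13b, the cytokine BAFF, which were at least 1.21-fold, 1.29-fold and 1.31-fold higher. The second set held Auh, an enzyme of leucine breakdown, Mmp13, a collagenase, and Wif1, an inhibitor of Wnt ligands, at least 1.13-fold, 1.10-fold and 1.12-fold higher in untransfected cells. These 6 genes were chosen after their values were seen and for this separation, so no test of it is given, and Mmp13 entered only through the untransfected arrays. Median signals before normalization were 72.6 to 87.7 on the control arrays.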
